A study of Oryza sativa with 12 samples.

Results

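The genes described here were expressed in anthers of the rice cultivar Sant'Andrea (S.AND) and were close to absent from the RNA of anthers of Erythroceros Hokkaido (ERY). A gene was included when its mean was at least 10 RPKM (a read count scaled by the length of the gene's exons and by the reads of the library) in both S.AND groups and under 0.5 RPKM in both ERY groups, and OsPKS2 (LOC_Os07g22850) was left out by name. The genes were thus chosen by the measured means of both cultivars, and their levels in S.AND and ERY are given without a test. The rule took 53 of the 55985 gene models of the table, which is 0.421% of the 12596 genes that reached 10 RPKM in both S.AND means. The mirror rule, with the cultivars exchanged, took 76 genes, or 0.605% of the 12564 genes that reached 10 RPKM in both ERY means.

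The 4 groups were S.AND COLD and S.AND CONTROL, from a cold-susceptible cultivar, and ERY COLD and ERY CONTROL, from a cold-tolerant one, with 3 samples in each and 12 in all. COLD plants spent 1 night at 8 °C and CONTROL plants spent it at 24 °C, and anthers at a post-meiotic stage were dissected from spikelets of the middle of the panicle. Plants were chosen in each cultivar by the distance between the auricles of the upper leaves. The study had set this distance against anther stage in sections of both cultivars, and it used only anthers of normal anatomy. The table gives 1 mean per group, computed by the authors, without a spread. It also holds the authors' own test of COLD against CONTROL, which was not used. No difference below was checked against replicates here, and no p-value is given.

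The anther wall encloses the developing microspores, and its innermost layer, the tapetum, feeds them and makes the precursors of sporopollenin, the polymer of the outer pollen wall (exine). Tapetum genes are switched on and off by a cascade of MYB, bHLH and PHD-finger transcription factors as the microspores mature. The ends of the short arms of chromosomes 11 and 12 are known to carry a shared duplicated segment, in which many genes have a close copy on the other chromosome.

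Defining markers of the labelled tissue were present in both cultivars. Summed over 5 stamen identity genes, the level was 2260 RPKM in S.AND COLD and 2521 RPKM in S.AND CONTROL, against 2881 RPKM in ERY COLD and 2840.4 RPKM in ERY CONTROL. Summed over 5 tapetum genes, it was 21082 and 26004 RPKM in S.AND COLD and CONTROL, against 21461 and 27307 RPKM in ERY COLD and CONTROL, most of it from the lipid transfer protein gene OsC6. Without OsC6 the tapetum sum was 1253 and 1432 RPKM in S.AND COLD and CONTROL, against 1174 and 1355 RPKM in ERY COLD and CONTROL. The stamen sum was thus lower in S.AND, whereas the side on which the tapetum sum was higher depended on OsC6, and other tapetum genes given further on differed many-fold between the cultivars. Of other tissues, the 3 pistil or ovule genes summed to 4.30 and 9.43 RPKM in S.AND COLD and CONTROL, against 23.3 and 14.9 RPKM in ERY COLD and CONTROL. Without DL, the pistil gene that made up most of each sum, these were 1.71 and 3.81 RPKM in S.AND COLD and CONTROL, against 9.21 and 2.47 RPKM in ERY COLD and CONTROL. The pistil signal was thus lower in S.AND COLD with or without DL, and in CONTROL its direction depended on that gene. The 4 lemma or palea genes summed to 106 and 85.5 RPKM in S.AND COLD and CONTROL, against 95.6 and 79.9 RPKM in ERY COLD and CONTROL. Most of this was OsMADS14, and the sum of the other 3 genes went the other way. They summed to 11.3 and 12.6 RPKM in S.AND COLD and CONTROL, against 23.6 and 17.3 RPKM in ERY COLD and CONTROL. OsMADS1 was lower in S.AND in both treatments. OsMADS6 was lower in S.AND COLD, with 3.95 RPKM against 8.32 RPKM in ERY COLD. In CONTROL it was nearly equal, with 5.30 RPKM in S.AND against 5.48 RPKM in ERY. OsMADS15 was higher in S.AND, with 2.84 and 2.50 RPKM in COLD and CONTROL, against 1.62 and 1.43 RPKM in ERY. The part of these tissues in the differences below was not tested, and in whole anthers fewer cells of a type and less RNA per cell cannot be told apart.

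The 53 genes were of moderate abundance in S.AND. Their median was 21.9 RPKM in S.AND COLD (10.0 to 278) and 24.1 RPKM in S.AND CONTROL (11.5 to 290.4), whereas all genes that reached the same level in S.AND had medians of 34.6 and 33.0 RPKM in COLD and CONTROL. In S.AND CONTROL, 31 of the genes reached 20 RPKM, 13 reached 50 RPKM and 5 reached 100 RPKM. In ERY, their median was 0.124 RPKM in COLD and 0.0949 RPKM in CONTROL. Added up, they came to 2179 and 2245 RPKM in S.AND COLD and CONTROL, against 7.99 and 7.56 RPKM in ERY COLD and CONTROL. The gap between the cultivars is what the rule selected, so these levels are a description. Whether a given gene is present in the ERY genome was not measured.

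**Figure D1:**
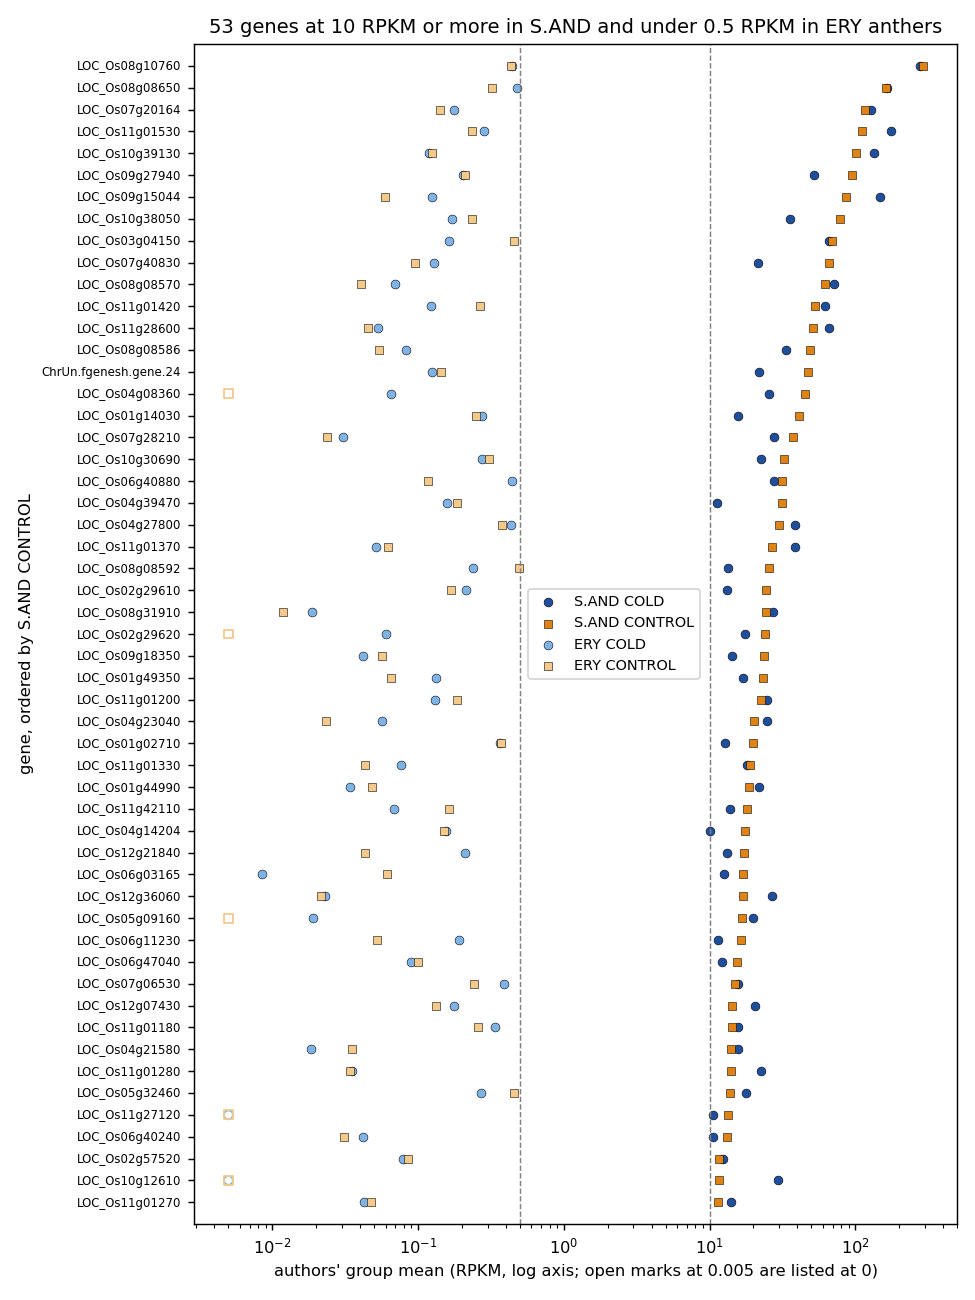
Authors' mean RPKM (log axis) of the 53 genes, 1 row per gene, ordered by S.AND CONTROL, with circles for COLD and squares for CONTROL. Dark marks are S.AND and pale marks are ERY, the dashed lines mark 0.5 and 10 RPKM, and open marks placed at 0.005 stand for a listed 0. No gene has a mean between the dashed lines, as the rule requires, and 5 genes stand above 100 RPKM in S.AND CONTROL.

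Most of the genes had some reads in ERY. Of the 53, 2 were listed at 0 in both ERY means (LOC_Os10g12610 and LOC_Os11g27120) and 3 in ERY CONTROL alone (LOC_Os02g29620, LOC_Os04g08360 and LOC_Os05g09160). In the higher of the 2 ERY means, 23 genes lay under 0.1 RPKM, 16 between 0.1 and 0.25 RPKM, and 14 at 0.25 RPKM or more. The genes nearest to the ERY limit from inside were LOC_Os08g08592, LOC_Os08g08650 and LOC_Os03g04150, with higher ERY means of 0.495, 0.479 and 0.458 RPKM. Those nearest from outside were LOC_Os11g08460, LOC_Os07g32650 and LOC_Os11g45290, at 0.509, 0.530 and 0.540 RPKM. In all, 26 genes at the S.AND level had their higher ERY mean between 0.5 and 1 RPKM, with these 3 and OsPKS2 among them. The limit of 0.5 RPKM thus does not fall in a gap. At the S.AND limit, LOC_Os04g14204, LOC_Os11g27120 and LOC_Os06g40240 were just inside, with lower S.AND means of 10.0, 10.6 and 10.6 RPKM. LOC_Os12g29680, LOC_Os12g07840 and LOC_Os01g36820 were just outside, at 9.43, 9.35 and 9.02 RPKM. OsPKS2, a polyketide synthase of sporopollenin synthesis, had 191 and 343 RPKM in S.AND COLD and CONTROL, against 0.762 and 0.646 RPKM in ERY COLD and CONTROL, and would have missed the ERY limit without being left out.

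The most abundant of the genes was LOC_Os08g10760, with 278 and 290.4 RPKM in S.AND COLD and CONTROL, against 0.440 and 0.431 RPKM in ERY COLD and CONTROL. LOC_Os08g08650 had 166 and 164 RPKM in S.AND COLD and CONTROL, against 0.479 and 0.319 RPKM in ERY COLD and CONTROL. LOC_Os07g20164 had 128 and 116 RPKM in S.AND COLD and CONTROL, against 0.177 and 0.142 RPKM in ERY COLD and CONTROL. In these genes the S.AND means of both treatments were close to each other. LOC_Os11g01530 had 175 and 111 RPKM in S.AND COLD and CONTROL, against 0.284 and 0.234 RPKM in ERY COLD and CONTROL. LOC_Os10g39130 had 135 and 102 RPKM in S.AND COLD and CONTROL, against 0.119 and 0.125 RPKM in ERY COLD and CONTROL. LOC_Os09g15044 had 149 and 85.9 RPKM in S.AND COLD and CONTROL, against 0.124 and 0.0596 RPKM in ERY COLD and CONTROL. These were higher in S.AND COLD than in S.AND CONTROL, but by less than 2-fold. The opposite order was seen in LOC_Os09g27940, with 52.4 and 95.7 RPKM in S.AND COLD and CONTROL, against 0.205 and 0.208 RPKM in ERY COLD and CONTROL. LOC_Os03g04150 had 65.9 and 69.4 RPKM in S.AND COLD and CONTROL, against 0.163 and 0.458 RPKM in ERY COLD and CONTROL, and was the 1 gene of the 53 on chromosome 3. None of these loci has a product in the sources used here.

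A product was given for 3 of the 53 genes, and 2 of these act in the tapetum. NP1 (LOC_Os10g38050), a glucose-methanol-choline oxidoreductase needed for exine formation, had 35.7 and 78.7 RPKM in S.AND COLD and CONTROL, against 0.172 and 0.234 RPKM in ERY COLD and CONTROL. OsMYB103 (LOC_Os04g39470), a MYB transcription factor of the tapetum, had 11.2 and 31.2 RPKM in S.AND COLD and CONTROL, against 0.158 and 0.185 RPKM in ERY COLD and CONTROL. Both were lower in S.AND COLD than in S.AND CONTROL by more than 2-fold. The third, LOC_Os10g12610, is described only as an expressed protein, and had 29.6 and 11.6 RPKM in S.AND COLD and CONTROL and a listed 0 in both ERY means.

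NP1 and OsMYB103 belong to a list of 45 anther development genes that the study printed with values of these samples, so the direction of that list is not independent of them. Of its other 43 genes, 15 exceeded ERY CONTROL by 2-fold or more in S.AND CONTROL, on the scale of log2(RPKM + 0.1), and 2 were lower by 2-fold or more. Of all 25444 expressed genes outside the 53 (1 RPKM or more in some group), 10.7% were higher and 7.66% lower by that measure. In CONTROL, the median log2 ratio of S.AND over ERY was 0.21 for the 43 genes and 0.04 for all expressed genes outside the 53. A ratio of at least 8 was found in 6 of them in CONTROL and in 3 in COLD, where 2.84% and 1.42% of all expressed genes outside the 53 had one. Beside OsPKS2, the 6 genes of CONTROL were OsTKPR2 (LOC_Os01g03670) and OsTKPR1 (LOC_Os09g32020), reductases of the polyketide route to sporopollenin, CYP703A3 (LOC_Os08g03682), a fatty acid hydroxylase of exine formation, and the tapetum regulators PTC1 (LOC_Os09g27620) and OsTDF1 (LOC_Os03g18480). The list gives the name OsTKPR2 as putative. In COLD, OsPKS2, OsTKPR2 and OsTKPR1 were the 3 genes past that ratio. OsTKPR2, with the largest CONTROL ratio of the 43 genes, had 535 and 914 RPKM in S.AND COLD and CONTROL, against 2.94 and 1.63 RPKM in ERY COLD and CONTROL. PTC1 had 16.5 and 37.0 RPKM in S.AND COLD and CONTROL, against 2.97 and 1.42 RPKM in ERY COLD and CONTROL. OsTDF1 had 7.45 and 19.7 RPKM in S.AND COLD and CONTROL, against 1.41 and 1.03 RPKM in ERY COLD and CONTROL. Other genes of the same tissue did not share the gap. UDT1 (LOC_Os07g36460), an early bHLH regulator of tapetum differentiation, had 68.2 and 51.1 RPKM in S.AND COLD and CONTROL, against 52.0 and 47.3 RPKM in ERY COLD and CONTROL. TDR (LOC_Os02g02820), a bHLH regulator that acts after UDT1, had 295 and 495 RPKM in S.AND COLD and CONTROL, against 265 and 367 RPKM in ERY COLD and CONTROL.

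The genes were unevenly spread over the chromosomes. Chromosome 11 held 11 of the 53 genes (20.8%), although it held 4.68% of the genes that reached 10 RPKM in S.AND, and 2.48 genes would be its part in proportion. Of the 11 genes, 8 stood in 1 short stretch described below, and only 3 lay elsewhere on the chromosome. Chromosome 3 held 1 gene, where 7.75 would be in proportion. Chromosomes 4 and 8 held 6 genes each, chromosome 6 held 5, chromosomes 1, 7 and 10 held 4 each, chromosomes 2, 9 and 12 held 3 each and chromosome 5 held 2. The remaining gene, ChrUn.fgenesh.gene.24, is not placed on a chromosome.

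**Figure D2:**
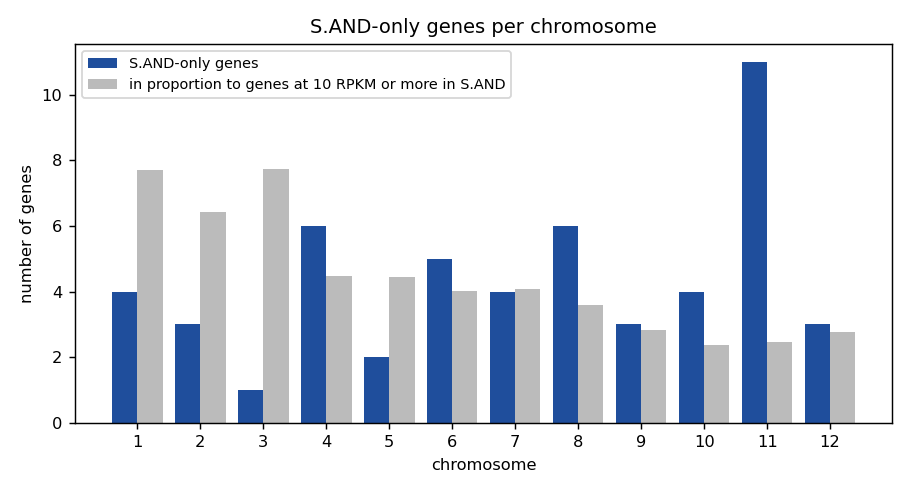
Number of S.AND-only genes on each chromosome (left bars) and the number in proportion to the genes of that chromosome with 10 RPKM or more in both S.AND means (right bars). Chromosome 11 held 11 genes against 2.48 in proportion, and chromosome 3 held 1 against 7.75. Of the 11 genes, 8 stood in 1 short stretch and 3 elsewhere on chromosome 11.

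Locus identifiers of the MSU annotation number the gene models of a chromosome in order, so neighbours can be found from them. Joining genes with at most 10 gene models between them gave 3 clusters with 14 of the 53 genes (26.4%), and left 39 outside. For the ERY-only genes of the mirror rule, 15 of 76 (19.7%) fell in 7 clusters, of which the largest held 3 genes. No S.AND-only gene had an ERY-only gene within 10 gene models. With 76 ERY-only genes among 55985 gene models, few would lie that near in any case, so nothing is read from this. The 3 clusters were a pair on chromosome 2, a group of 4 within 10 gene models on chromosome 8, and a group of 8 within 33 gene models near the start of chromosome 11.

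The chromosome 11 cluster ran from LOC_Os11g01180 to LOC_Os11g01530. LOC_Os11g01180 had 15.7 and 14.2 RPKM in S.AND COLD and CONTROL, against 0.339 and 0.256 RPKM in ERY COLD and CONTROL. LOC_Os11g01200 had 25.0 and 22.6 RPKM in S.AND COLD and CONTROL, against 0.130 and 0.186 RPKM in ERY COLD and CONTROL. LOC_Os11g01270 had 14.0 and 11.5 RPKM in S.AND COLD and CONTROL, against 0.0423 and 0.0474 RPKM in ERY COLD and CONTROL. Both treatments gave close S.AND means in these 3 genes. LOC_Os11g01280 had 22.7 and 13.9 RPKM in S.AND COLD and CONTROL, against 0.0354 and 0.0343 RPKM in ERY COLD and CONTROL. LOC_Os11g01330 had 18.0 and 18.9 RPKM in S.AND COLD and CONTROL, against 0.0758 and 0.0434 RPKM in ERY COLD and CONTROL. LOC_Os11g01370 had 38.6 and 27.0 RPKM in S.AND COLD and CONTROL, against 0.0511 and 0.0625 RPKM in ERY COLD and CONTROL. Of the 8 genes, LOC_Os11g01530 (above) was the most abundant in S.AND, and LOC_Os11g01420 came next. LOC_Os11g01420 had 61.9 and 53.2 RPKM in S.AND COLD and CONTROL, against 0.122 and 0.267 RPKM in ERY COLD and CONTROL.

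Genes lying between these 8 that the rule did not take showed the same pattern for the most part. Of 14 expressed gene models inside the chromosome 11 cluster, 12 exceeded ERY by 2-fold or more in CONTROL and 9 by 8-fold or more, against 10.7% and 2.84% of all expressed genes outside the 53. Over the 3 clusters with 5 gene models on each side, 16 of 24 exceeded ERY by 2-fold or more and 12 by 8-fold or more. Nearly all of these were at the chromosome 11 cluster, with 15 of 20 by 2-fold or more and 11 by 8-fold or more. At the chromosome 2 pair it was 1 of 2 by both measures, and at the chromosome 8 group 0 of 2. OsFAD3 (LOC_Os11g01340), named as an omega-3 fatty acid desaturase, an enzyme class that introduces the last double bond of linolenic acid, had 423 and 278 RPKM in S.AND COLD and CONTROL, against 1.43 and 1.29 RPKM in ERY COLD and CONTROL. It failed the rule on the ERY limit alone. LOC_Os11g01380 had 137 and 132 RPKM in S.AND COLD and CONTROL, against 2.63 and 2.42 RPKM in ERY COLD and CONTROL. LOC_Os11g01450 was listed at 0 in both ERY means and had 4.79 and 6.99 RPKM in S.AND COLD and CONTROL, below the S.AND limit.

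The study's real-time PCR primers for OsFAD3 are shown because this is the most abundant gene inside the cluster and the one there for which sequence was at hand. Those for the igA FC receptor gene (LOC_Os07g40890), described further on, are shown beside them. The study measured both genes by real-time PCR in biological replicates. It reported that the genes it chose for this followed the pattern of its RNA-seq. All 4 primers run 5′ to 3′.
OsFAD3 forward: agcttgctttccttccttcc
OsFAD3 reverse: aatttgaggggaggtgtttg
igA FC receptor forward: gtttccgaaggtgcctgaac
igA FC receptor reverse: gaagtggaactcaggcttgg

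In CONTROL, 2 expressed gene models inside the stretch fell short of a 2-fold difference. LOC_Os11g01390 had 46.1 and 8.07 RPKM in S.AND COLD and CONTROL, against 46.3 and 11.3 RPKM in ERY COLD and CONTROL, and was higher in COLD in both cultivars. LOC_Os11g01460 had 1.94 and 1.11 RPKM in S.AND COLD and CONTROL, against 0.554 and 0.790 RPKM in ERY COLD and CONTROL. LOC_Os11g01510 passed a 2-fold difference but was well expressed in ERY, and had 124 and 126 RPKM in S.AND COLD and CONTROL, against 50.7 and 50.2 RPKM in ERY COLD and CONTROL. The pattern ended within a few gene models on each side. Just before the cluster, LOC_Os11g01170 had 88.8 and 68.5 RPKM in S.AND COLD and CONTROL, against 125 and 113 RPKM in ERY COLD and CONTROL. Past its end, LOC_Os11g01570 still had 3.08 and 8.49 RPKM in S.AND COLD and CONTROL, against 0.110 and 0.117 RPKM in ERY COLD and CONTROL. The next expressed gene model, LOC_Os11g01590, had 6.75 and 8.57 RPKM in S.AND COLD and CONTROL, against 9.03 and 6.82 RPKM in ERY COLD and CONTROL.

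**Figure D3:**
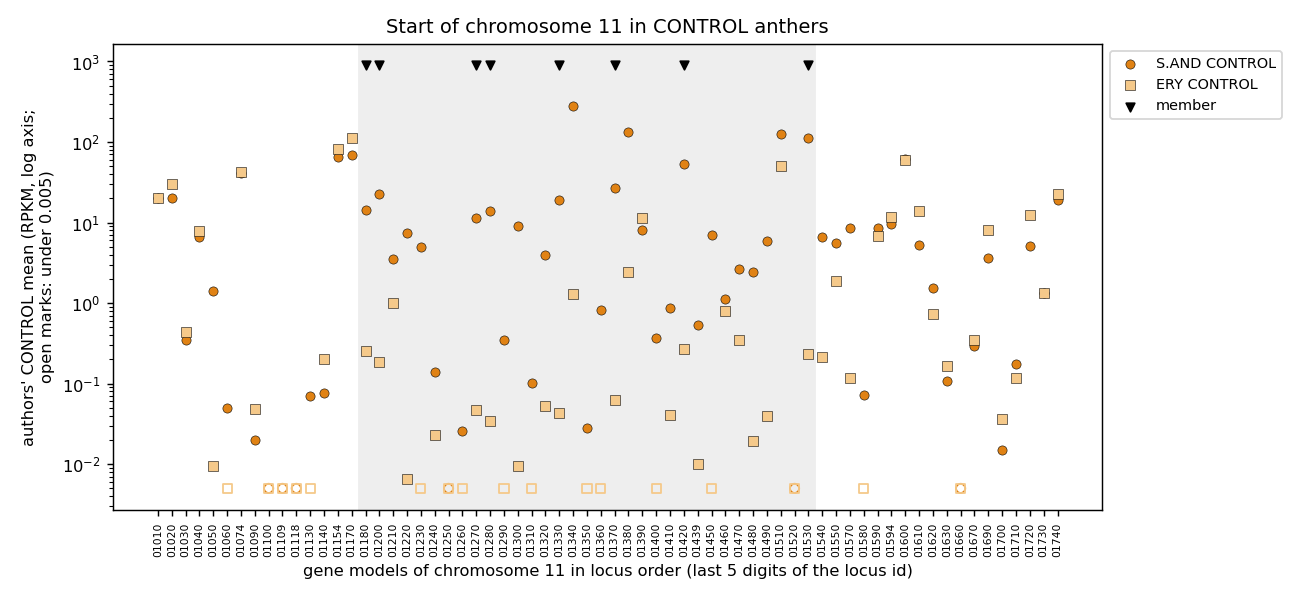
Authors' CONTROL means (RPKM, log axis) of S.AND (dark circles) and ERY (pale squares) for gene models at the start of chromosome 11 in locus order, with triangles over the 8 S.AND-only genes and grey over the stretch they span. Open marks stand for means under 0.005 RPKM. Inside the grey stretch 20 of 22 expressed gene models exceeded ERY by 2-fold or more, and on both sides the 2 cultivars lie close together at most gene models. The 22 include the 8 S.AND-only genes, which the rule chose for this gap, and 12 of the other 14 exceeded ERY by 2-fold or more.

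The matching stretch of chromosome 12 was looked at after the chromosome 11 values had been seen, because of the duplicated segment. It was taken as the gene models of chromosome 12 with the same range of locus numbers, from LOC_Os12g01180 to LOC_Os12g01530, and no pairing of single genes was made. Of its 35 gene models 25 were expressed, and 19 of these were at least 1.5-fold lower in S.AND CONTROL than in ERY CONTROL, where 14.4% of all expressed genes outside the 53 were. In COLD the number was 20, where 14.2% were. The median log2 ratio of S.AND over ERY was −0.93 in COLD and −0.83 in CONTROL on chromosome 12, whereas it was 5.73 in COLD and 5.93 in CONTROL for the 22 expressed gene models of the chromosome 11 stretch. Of those 22, 8 were chosen by the rule for this gap, and the other 14 had medians of 5.40 in COLD and 5.09 in CONTROL. The middle part of the chromosome 12 values in CONTROL was narrow, with quartiles of −1.05 and −0.62. Past the end of the stretch, the median of 29 expressed gene models of chromosome 12 was 0.04 in COLD and 0.05 in CONTROL. The first of them were still lower in S.AND CONTROL, with −0.93 for LOC_Os12g01540, −0.42 for LOC_Os12g01550 and −1.11 for LOC_Os12g01560. Before the stretch, 6 expressed gene models had medians of −0.25 in COLD and 0.08 in CONTROL, and 1 of them, LOC_Os12g01150, had 4.08 in CONTROL.

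**Figure D4:**
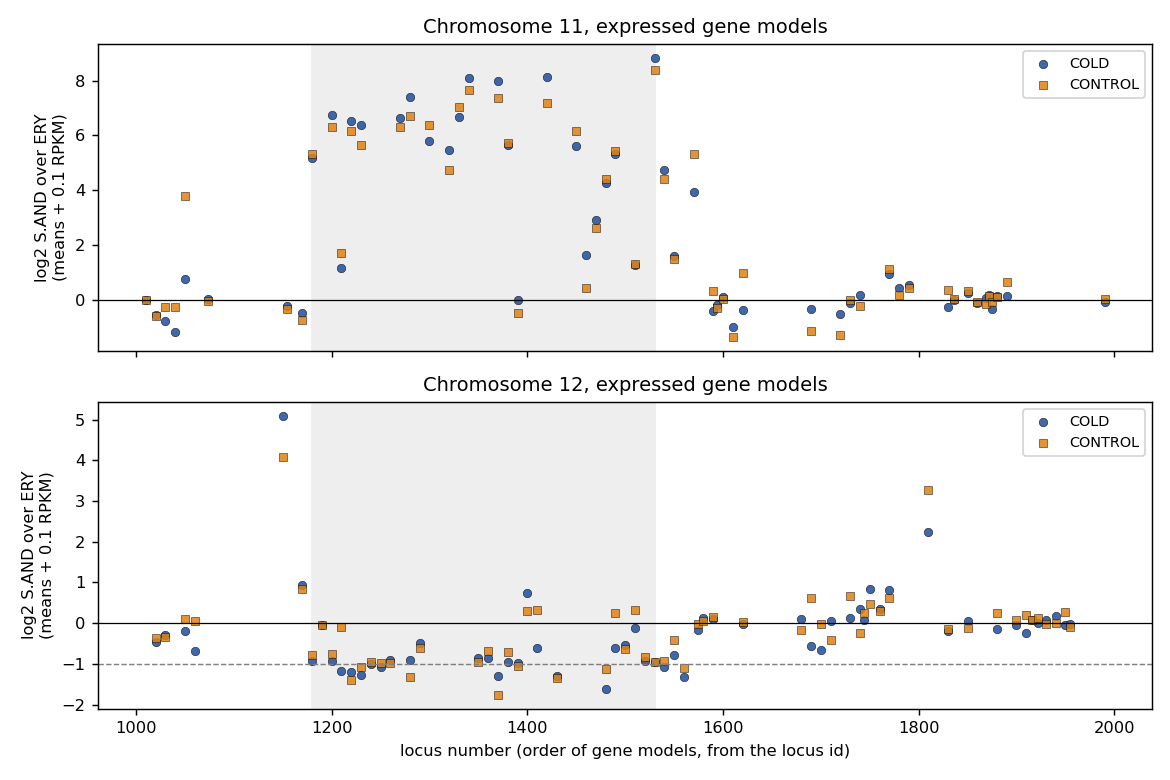
Log2 ratio of S.AND over ERY means (RPKM + 0.1) of expressed gene models at the start of chromosome 11 (upper panel) and chromosome 12 (lower panel), placed by locus number, for COLD (circles) and CONTROL (squares). Grey marks the range of locus numbers of the chromosome 11 cluster, the dashed line a 2-fold lower level in S.AND, and the vertical scales of the panels differ. Within the grey range the medians in CONTROL are 5.93 on chromosome 11 and −0.83 on chromosome 12. The chromosome 11 median includes the 8 genes chosen by the rule, and is 5.09 without them.

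The most abundant genes of the chromosome 12 stretch were expressed in both cultivars, at a lower level in S.AND. LOC_Os12g01370 had 341 and 361 RPKM in S.AND COLD and CONTROL, against 833 and 1224 RPKM in ERY COLD and CONTROL. LOC_Os12g01390 had 139 and 131 RPKM in S.AND COLD and CONTROL, against 275 and 271 RPKM in ERY COLD and CONTROL. LOC_Os12g01530 had 177 and 110 RPKM in S.AND COLD and CONTROL, against 344 and 212 RPKM in ERY COLD and CONTROL. In each of these genes S.AND was lower than ERY in both treatments. Of the 25 expressed gene models, 24 were lower in S.AND in COLD and 21 in CONTROL, by any amount. LOC_Os12g01190 was nearly equal, with 94.9 and 71.7 RPKM in S.AND COLD and CONTROL, against 97.5 and 74.5 RPKM in ERY COLD and CONTROL. LOC_Os12g01400 was higher in S.AND, with 26.7 and 5.32 RPKM in S.AND COLD and CONTROL, against 15.9 and 4.28 RPKM in ERY COLD and CONTROL. Summed over all gene models of both stretches, the level was 2250 RPKM in S.AND COLD and 2283 RPKM in ERY COLD, a ratio of 0.986. In CONTROL it was 1863 RPKM in S.AND and 2428 RPKM in ERY, a ratio of 0.767. Without the most abundant gene of each stretch (LOC_Os11g01340 and LOC_Os12g01370), the ratio was 1.03 in COLD and 1.02 in CONTROL. Reads of 50 bp can match both copies of a duplicated gene, and the sources used here do not say how such reads were counted, so the split of a pair's reads between the chromosomes is uncertain and its part in these values was not tested.

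On chromosome 8, the 4 genes stood in a stretch that was otherwise close to silent in both cultivars. LOC_Os08g08570 had 71.9 and 61.9 RPKM in S.AND COLD and CONTROL, against 0.0694 and 0.0405 RPKM in ERY COLD and CONTROL. LOC_Os08g08586 had 33.5 and 49.0 RPKM in S.AND COLD and CONTROL, against 0.0824 and 0.0537 RPKM in ERY COLD and CONTROL. LOC_Os08g08592 had 13.4 and 25.5 RPKM in S.AND COLD and CONTROL, against 0.237 and 0.495 RPKM in ERY COLD and CONTROL. With LOC_Os08g08650, these were the only gene models among the 10 of the cluster with a mean of 1 RPKM or more in any group. The pair on chromosome 2 were direct neighbours. LOC_Os02g29610 had 13.2 and 24.5 RPKM in S.AND COLD and CONTROL, against 0.214 and 0.168 RPKM in ERY COLD and CONTROL. LOC_Os02g29620 had 17.4 and 24.1 RPKM in S.AND COLD and CONTROL, against 0.0605 RPKM in ERY COLD and a listed 0 in ERY CONTROL.

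Around the 38 genes that stood outside clusters on numbered chromosomes, neighbours resembled other genes more closely. Of 341 expressed neighbours within 10 gene models, 46 (13.5%) exceeded ERY by 2-fold or more in CONTROL and 19 (5.57%) by 8-fold or more, beside the 10.7% and 2.84% of all expressed genes outside the 53. Of the 38 genes, 15 had a neighbour with a ratio of at least 8. The same share was not computed around other genes, so nothing is read from this count. LOC_Os08g31910 had 27.3 and 24.3 RPKM in S.AND COLD and CONTROL and 0.0187 and 0.0119 RPKM in ERY COLD and CONTROL. Its direct neighbour LOC_Os08g31920 had 158 and 208 RPKM in S.AND COLD and CONTROL, against 0.752 and 0.843 RPKM in ERY COLD and CONTROL. Near LOC_Os04g08360, with 25.4 and 45.1 RPKM in S.AND COLD and CONTROL, LOC_Os04g08280 had 56.1 and 89.4 RPKM in S.AND COLD and CONTROL, against 0.360 and 0.598 RPKM in ERY COLD and CONTROL. These neighbours missed the rule through ERY means between 0.5 and 1 RPKM. The same held for LOC_Os07g40890, the igA FC receptor gene, which stands beyond LOC_Os07g40830 with 5 gene models between them. It had 486 and 501 RPKM in S.AND COLD and CONTROL, against 0.414 and 0.719 RPKM in ERY COLD and CONTROL. LOC_Os07g40830 itself had 21.4 and 66.2 RPKM in S.AND COLD and CONTROL, against 0.130 and 0.0949 RPKM in ERY COLD and CONTROL. Between them LOC_Os07g40860 was the higher one in ERY. It had 2.95 and 2.42 RPKM in S.AND COLD and CONTROL, against 10.0 and 17.7 RPKM in ERY COLD and CONTROL.

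The response to the cold night was read in S.AND alone, since both ERY means were under 0.5 RPKM by the rule. The log2FC is the log2 of the S.AND COLD mean over the S.AND CONTROL mean, with no pseudocount. At a fold of at least 2, 1 of the 53 genes was higher in S.AND COLD (1.89%) and 5 were lower (9.43%). Among all 12596 genes with at least 10 RPKM in both S.AND means, 3.3% were higher and 2.92% were lower by that measure. The rule asks for 10 RPKM in both S.AND means, so a gene that fell below that level in COLD could not be among the 53.

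The 1 higher gene was LOC_Os10g12610, with a log2FC of 1.36 and a S.AND COLD mean of 29.6 RPKM against 11.6 RPKM in S.AND CONTROL. The largest difference the other way was that of LOC_Os07g40830, with a log2FC of −1.63. OsMYB103 followed at −1.48 and NP1 at −1.14. The remaining 2 genes have no product in the sources used here. LOC_Os01g14030 had 15.6 RPKM in S.AND COLD against 41.4 RPKM in S.AND CONTROL, a log2FC of −1.40. ChrUn.fgenesh.gene.24 had 21.9 RPKM in S.AND COLD against 47.3 RPKM in S.AND CONTROL, a log2FC of −1.11. The 5 genes lower in COLD thus included both genes of the 53 with a known role in the tapetum. Both belong to the anther development list. With its own test of COLD against CONTROL, the study reported genes of that list as changed past its fold limit in ERY alone. The S.AND folds given here for genes of the list are ratios of group means, without a test. The other 43 genes of the anther development list had a median log2FC of −0.19 in S.AND. Of these, 3 were at least 2-fold lower and 1 at least 2-fold higher. All genes at 10 RPKM in both S.AND means, a limit not set for the list, had shares of 2.92% and 3.3%. The lower ones were OsTDF1 (−1.40), PTC1 (−1.17) and MTR1, the last with only 0.474 and 1.33 RPKM in S.AND COLD and CONTROL. The higher one was OsTDL1A (1.12). OsTKPR2 (−0.77) and TDR (−0.75) were lower by less, whereas GAMYB (0.77) and UDT1 (0.41) were higher.

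Between the treatments, 36 of the 53 genes (67.9%) lay within 1.5-fold, against 81.5% of all genes at the same S.AND level. Above 0 were 25 genes (47.2%), against 58.2% of all those genes, and 28 were below 0. The median log2FC was −0.07, with quartiles of −0.54 and 0.26, whereas all genes at that level had a median of 0.07 and quartiles of −0.20 and 0.31. After LOC_Os10g12610, the highest values were those of LOC_Os09g15044 (0.79), LOC_Os11g01280 (0.70), LOC_Os12g36060 (0.67), LOC_Os11g01530 (0.65), LOC_Os11g01370 (0.52), LOC_Os12g07430 (0.51) and LOC_Os10g39130 (0.41). On the other side, LOC_Os08g08592 (−0.93), LOC_Os02g29610 (−0.89) and LOC_Os09g27940 (−0.87) came next after the 5 lower genes. None of these reached a fold of 2.

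**Figure D5:**
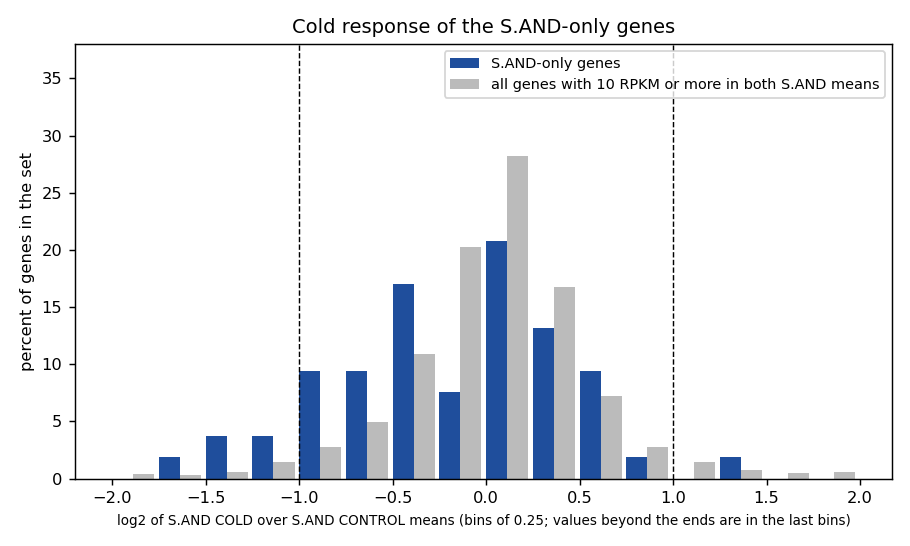
Percent of genes in bins of 0.25 of the log2FC between S.AND COLD and S.AND CONTROL, for the 53 S.AND-only genes (left bars) and all 12596 genes with 10 RPKM or more in both S.AND means (right bars). The dashed lines mark a fold of 2, beyond which lie 5 S.AND-only genes on the lower side and 1 on the higher side.

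The clusters differed in their median response, which is given as a description. In the chromosome 11 cluster, 7 of 8 genes were above 0 and the median log2FC was 0.25 (−0.07 to 0.70). In the chromosome 8 cluster the median was −0.27 (−0.93 to 0.22) and 2 of 4 genes were above 0, and both genes of the chromosome 2 pair were below 0. Among the 39 genes outside clusters the median was −0.30, and 16 were above 0. With 1 mean per group, whether these medians differ by more than the replicates do could not be tested.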

How the data were processed

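RNA-seq was made from rice anthers of 12 samples in 4 groups of 3. The authors sequenced poly(A) RNA as single 50 bp reads and processed it with CLC Genomics Workbench on MSU 7.0 gene models. The deposited table has, as the authors' values, 1 mean RPKM per group. Each column sums to 999998 to 1000000, which is the scale of TPM, so the values may not be plain RPKM. There are 0 columns of single samples, so depth and replicate spread are unknown. The 4 deposited columns of the authors' own comparison of treatments, a signed fold change score and a corrected p-value from Baggerley's test per cultivar, were not used.

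Genes, neighbours (10 gene models; 5 around clusters) and folds were computed with Python 3.11.15, NumPy 2.4.6 and pandas 2.3.3, and tested on simulated data. Ratios between cultivars used RPKM + 0.1. The members and lists were chosen with earlier results of these data known. Named genes were those with a described product, the 10 most abundant in S.AND CONTROL, the 8 highest and 8 lowest log2FC, clusters of 3 or more, and those next to a threshold. The chromosome 12 stretch, its sums, marker sums without the top gene, the neighbours of genes outside clusters, the genes named among them and the anther development list were chosen after values were seen. Of the table's identifiers, 0 matched the RefSeq gene table, so no coordinates are given.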

Additional observations from a re-analysis of the deposited data

How the results depend on the processing

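The number of S.AND-only genes was 94 with an S.AND limit of 5 RPKM, 24 with 20 RPKM and 80 from the CONTROL means alone. It stayed within 1.5 times of 53 with ERY limits of 0.25 and 1 RPKM (39 and 78), from the COLD means alone (72) and with OsPKS2 kept (53). The number in clusters was 8 when direct neighbours were required, 9 and 22 with ERY limits of 0.25 and 1 RPKM, and 26 and 6 with S.AND limits of 5 and 20 RPKM, beside 14. At a fold of 1.5, 5 genes were higher and 12 lower in S.AND COLD, and at a fold of 3 the numbers were 0 and 1. The median log2FC was −0.30 and −0.32 with ERY limits of 0.25 and 1 RPKM and 0.0798 with an S.AND limit of 20 RPKM, so its sign depends on the limits. With a pseudocount of 1 RPKM all 53 log2FC values moved by less than 0.1 and 0 changed sign. Alternatives chosen after seeing the data moved the chromosome 12 median, to −0.93 with COLD means and −0.72 with a pseudocount of 1 RPKM. The cause of these differences was not tested.

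No paired analysis was possible because the columns are group means that carry no replicate number, and leaving out each replicate was not run for the same reason. Without values per sample, depth limits the reading of ERY means near 0 by an unknown amount.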
